A study of Mus musculus with 6 samples.

Results

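The genes described here are 9 extracellular or cell-surface modulators of BMP and activin signaling: *Fst*, *Fstl1*, *Fstl3*, *Grem1*, *Nog*, *Chrdl1*, *Twsg1*, *Nbl1* and *Bambi*. They were taken by symbol from a table of 24421 genes, and all 9 were found. RNA was sequenced from sorted mouse alveolar type 2 cells (AT2s), with 3 libraries in each of 2 groups. AT2-CTRL cells had the genotype *Sftpc-CreERT2/+; R26-tdTomato/+*, and AT2-CAB cells had *Sftpc-CreERT2/+; R26-tdTomato/R26-caBmpr1a*. Both groups therefore carried 1 tamoxifen-inducible Cre allele under control of *Sftpc* and 1 tdTomato lineage label, and AT2-CAB cells carried in addition a Cre-dependent allele of BMPR1a, a type I receptor for BMPs, that signals without ligand. In each group, 1 sample was labelled 16 weeks old (AT2-CTRL replicate 2 and AT2-CAB replicate 1) and the others 12 weeks old. Cells were sorted on the lineage label, which reports recombination of the tdTomato allele and not that of the caBmpr1a allele.

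BMP ligands bind pairs of type I and type II receptors, which phosphorylate Smad1, Smad5 and Smad8 and so switch on targets such as the Id genes. Secreted antagonists act before that step, by binding the ligand and keeping it from its receptors. Follistatins do so chiefly for activins, noggin and the gremlin and DAN family chiefly for BMPs, and in the lung many of these proteins are made by stromal cells that surround AT2s. The comparison asks whether AT2s with forced receptor activity changed the transcripts of antagonists that would act on the same pathway from outside.

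Libraries held between 21554249 and 28440227 counts. The summed level of 9 AT2 markers was 116000 to 131000 CPM (counts scaled to library size by the TMM method) in AT2-CTRL and 99300 to 111000 CPM in AT2-CAB, without overlap. Of the 9 markers, 8 had negative log2 fold changes, 5 were lower without overlap (10.1% of all tested genes) and 0 were called (0.0120% of all tested genes were called lower). *Id1*, *Id3*, *Smad6*, *Smad9* and *Atoh8*, 5 of 8 listed BMP target genes, were called higher in AT2-CAB, where all tested genes gave 0.239%. The other listed targets, *Id2*, *Id4* and *Smad7*, were not called. *Bmpr1a* itself was at 120.0 CPM in AT2-CTRL and 119 CPM in AT2-CAB, and the counts do not separate the transgene from the endogenous gene. AT2-CTRL replicate 1 and AT2-CAB replicate 3 stood apart from the other libraries on the first principal component, and had 171.8 and 158.0 CPM on 4 Y-linked genes where the other 4 libraries had 0.

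Expression of the 9 genes covered a wide range. Per length (RPKM, CPM divided by exon length in kilobases), the mean over the 6 libraries was 33.0 for *Bambi*, 27.7 for *Twsg1*, 14.8 for *Nbl1*, 4.01 for *Fstl1*, 2.18 for *Fstl3* (5.35 over exon bases that no other gene shares), 0.651 for *Fst*, 0.326 for *Chrdl1*, 0.206 for *Grem1* and 0.184 for *Nog*. *Bambi* and *Twsg1* together made up from 68.2% to 80.9% (65.3% to 78.3% with the shorter length of *Fstl3*) of the summed RPKM of the 9 genes in each library. The classical antagonists *Nog* and *Grem1* were at or under 0.343 CPM in each AT2-CTRL library, and reached 1.36 and 0.780 CPM in AT2-CAB replicate 3. Among all 16723 genes that passed the expression filter, the percentile of the level per length was 88.0 for *Bambi*, 85.5 for *Twsg1*, 73.1 for *Nbl1*, 46.0 for *Fstl1*, 37.3 for *Fstl3* (51.1 over its unshared bases), 19.0 for *Fst* and 8.82 for *Chrdl1*. Neighbours in this order did not overlap in any library for *Twsg1* and *Nbl1*, *Nbl1* and *Fstl1*, or *Fstl3* and *Fst*. *Bambi* and *Twsg1* overlapped, with *Bambi* higher in 5 of 6 libraries. The places of *Fstl1* and *Fstl3* depended on the length used. In the annotation of the count table, 1157 of the 1953 exon bases of *Fstl3* are shared with *Prss57* on the other strand, and reads there were left out of the counts. Over all its exon bases *Fstl3* lay below *Fstl1* in each of the 6 libraries, while over the 796 bases it does not share, a length tried after the values were seen, it had a mean of 5.35 RPKM and lay above *Fstl1* in 5 of 6 libraries. It stayed below *Nbl1* in 6 of 6 libraries. None of the other 8 genes shares exon bases with another gene. *Fst*, *Chrdl1*, *Grem1* and *Nog* overlapped from one neighbour to the next.

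**Figure D1:**
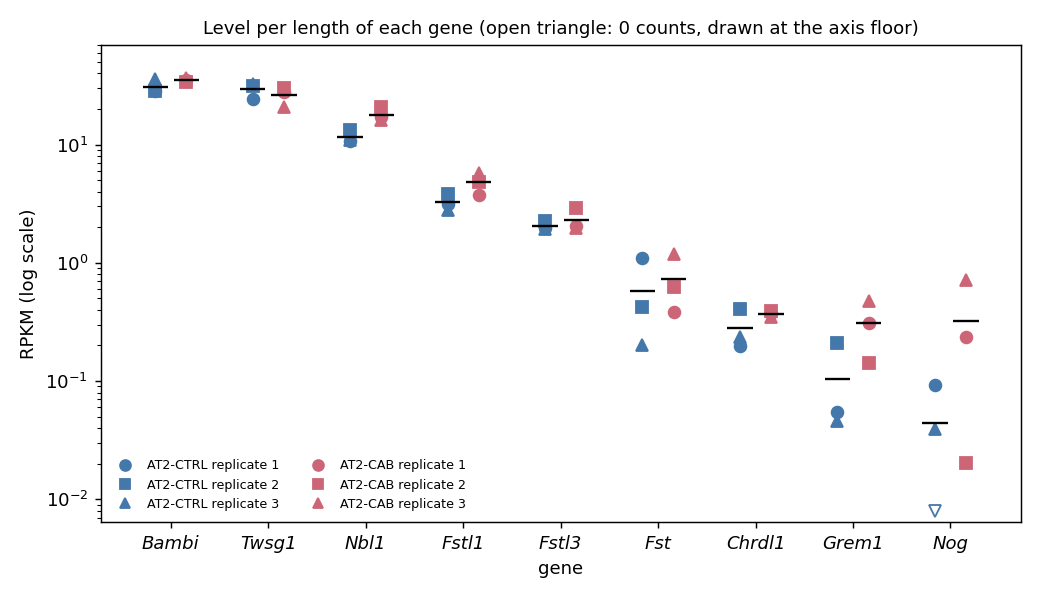
Level per length of the 9 genes in RPKM on a log axis, for each AT2-CTRL and AT2-CAB library, with a line at each group mean. All exon bases are used. Means fall from 33.0 for *Bambi* to 0.184 for *Nog*.

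None of the 9 genes differed between AT2-CAB and AT2-CTRL at an adjusted p under 0.05. *Nbl1* came closest, at 1.54 times the AT2-CTRL mean and with AT2-CAB libraries all above AT2-CTRL libraries, followed by *Fstl1* at 1.48 times. *Bambi* and *Twsg1*, the most abundant members, had log2 fold changes of 0.19 and -0.16. Of the 9 genes, 7 passed the expression filter and were tested, each at or above the filter level of 0.406 CPM in all 6 libraries. In edgeR's quasi-likelihood fit, with p-values adjusted over the 16723 genes by the Benjamini-Hochberg method, 0 of the 7 were called higher, where the background was 0.239%, and 0 were called lower, where it was 0.0120%. At an unadjusted p under 0.05, 2 of the 7 (*Nbl1* and *Fstl1*) were higher against 4.62% of all genes, and 0 were lower against 5.05%. DESeq2 also called 0 of them, where it called 1.45% of genes higher and 0.646% lower. Log2 fold changes were positive for 6 of the 7 and negative for 1, with a median of 0.36 beside -0.0096 over all genes tested. For a single gene, the smallest two-sided p that an exact permutation test can give in this design (n = 3 per group) is 0.1.

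**Figure D2:**
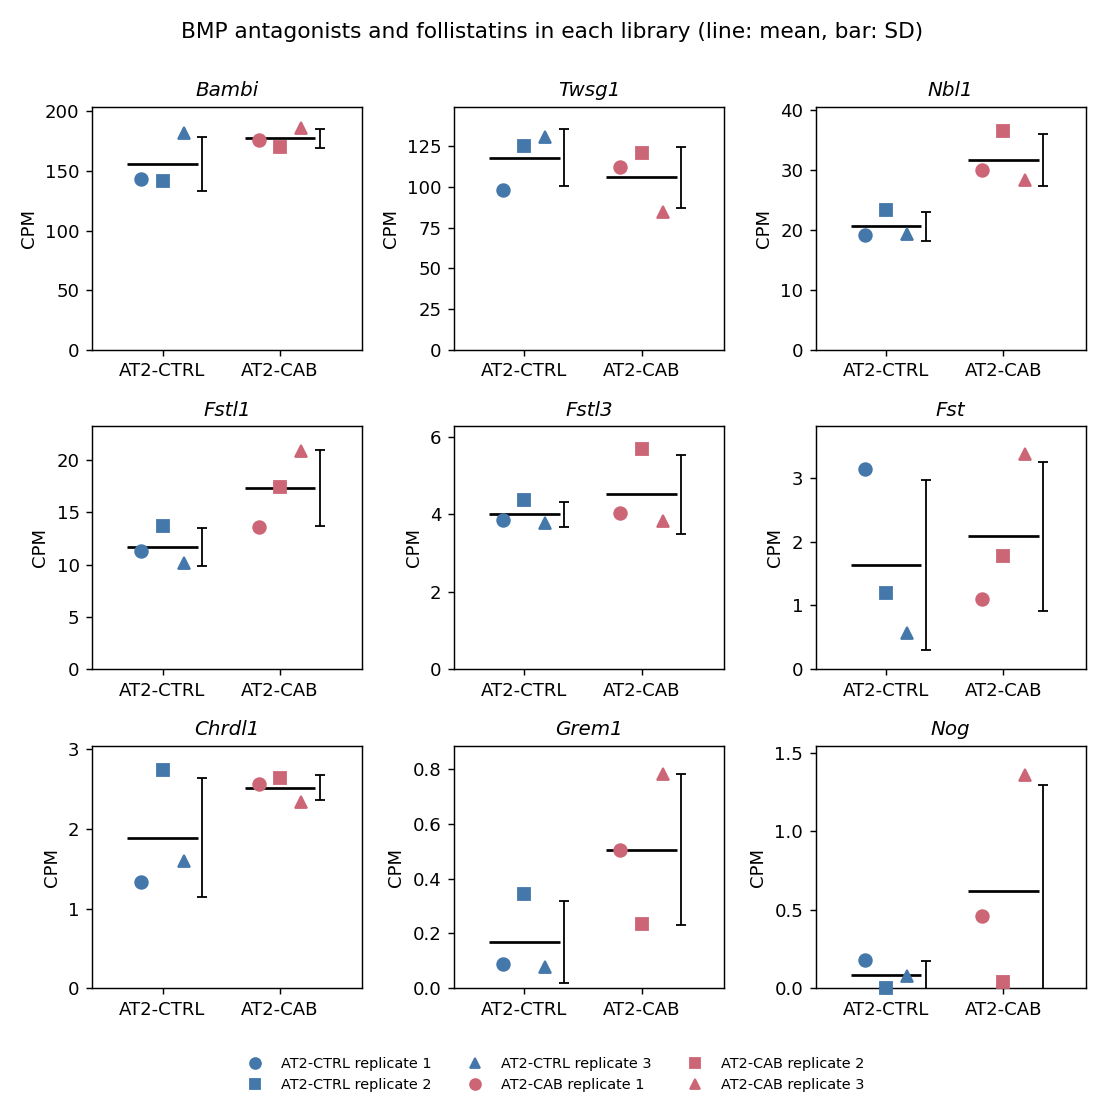
CPM of the 9 genes in each library, one panel per gene and an axis from 0, with a line at the group mean and a bar of 1 SD (n = 3), cut at 0 for *Nog*. Only the *Nbl1* panel has all AT2-CAB libraries (28.3 to 36.5) above all AT2-CTRL libraries (19.1 to 23.3).

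*Nbl1* encodes a secreted cystine-knot antagonist, the founding member of the DAN family to which gremlin belongs. In mm10 the gene spans 139082292 to 139092970 of chromosome 4 (reverse strand). It had 19.1, 23.3 and 19.2 CPM in AT2-CTRL replicates 1, 2 and 3, and 30.0, 36.5 and 28.3 CPM in AT2-CAB replicates 1, 2 and 3. The groups did not overlap, which was also true of 6.99% of all tested genes in this direction and 10.1% in the other. Means were 20.5 ± 2.40 and 31.6 ± 4.31 CPM (SD, n = 3). The log2 fold change was 0.62 (standard error 0.15, 95% confidence interval 0.29 to 0.96, edgeR adjusted p = 0.217). With Y-linked reads as a covariate it was 0.62 and passed (edgeR adjusted p = 0.0402), in a fit that called 1.27% of all genes higher and 1.26% lower. In the 4 libraries without such reads it was 0.68 and did not pass (edgeR adjusted p = 0.101), where 0.447% of genes were called higher and 0.245% lower.

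The level of *Nbl1* followed a sum of fibroblast genes in order, though not any single one of them. A sum was taken over 8 fibroblast markers, among them *Inmt*, *Pdgfra*, *Col1a1* and *Tcf21*. It was 205, 293 and 240.0 CPM in AT2-CTRL replicates 1, 2 and 3, and 355, 421 and 340.0 CPM in AT2-CAB replicates 1, 2 and 3. All AT2-CAB libraries were thus above all AT2-CTRL libraries. *Inmt* made the largest part, with means of 95.1 CPM in AT2-CTRL and 143 CPM in AT2-CAB. All 8 markers had positive log2 fold changes (median 0.51), none was called, and none was at 0. Of the 8, 3 were higher without overlap, where all tested genes gave 6.99%. *Nbl1* put the 6 libraries in the same order as this sum, though its AT2-CTRL replicates 1 and 3 were nearly equal (19.1 and 19.2 CPM). None of the 8 markers gave this order by itself. *Inmt*, for example, was higher in AT2-CTRL replicate 2 (128 CPM) than in AT2-CAB replicate 3 (115 CPM). Expressed as a percentage of the sum, a ratio formed after the values were seen, *Nbl1* was 9.33, 7.95 and 8.02 in AT2-CTRL and 8.46, 8.66 and 8.33 in AT2-CAB. The groups overlapped on this ratio, with a log2 difference of 0.013. Other marker lists moved in the same direction. Of 5 smooth muscle and pericyte markers, 5 had positive log2 fold changes (median 0.59), with sums of 37.5 to 55.7 CPM in AT2-CTRL and 51.0 to 75.8 CPM in AT2-CAB. Of 7 endothelial markers, 7 did (median 0.63), with sums of 201 to 463 and 399 to 661 CPM. None of these was called, and none was at 0 in all libraries. Medians were also positive for immune (0.72, 7 of 8 positive), airway (0.61, 4 of 5 tested), mesothelial (0.6, 3 of 3) and AT1 markers (0.33, 6 of 8). Among these, only the airway marker *Tppp3* was called. The median of the 9 AT2 markers was -0.33. The part of any of these cell types in the level of *Nbl1* was not tested. In sorted bulk RNA, fewer cells of a type and less RNA per cell cannot be told apart.

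*Fstl1*, a secreted glycoprotein related to SPARC that binds BMP4, spans 37777055 to 37836516 of chromosome 16 (forward strand). It had 11.3, 13.7 and 10.1 CPM in AT2-CTRL replicates 1, 2 and 3, and 13.6, 17.4 and 20.9 CPM in AT2-CAB replicates 1, 2 and 3. The groups overlapped at AT2-CTRL replicate 2 and AT2-CAB replicate 1, which were nearly equal, and AT2-CAB replicate 3 was highest. Means were 11.7 ± 1.81 and 17.3 ± 3.67 CPM (SD, n = 3), a log2 fold change of 0.57 (standard error 0.20, 95% confidence interval 0.12 to 1.02, edgeR adjusted p = 0.416). As a percentage of the summed fibroblast markers it was 5.52, 4.66 and 4.22 in AT2-CTRL and 3.82, 4.13 and 6.15 in AT2-CAB, with a log2 difference of -0.054. The difference in CPM therefore changed sign on this ratio.

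**Figure D3:**
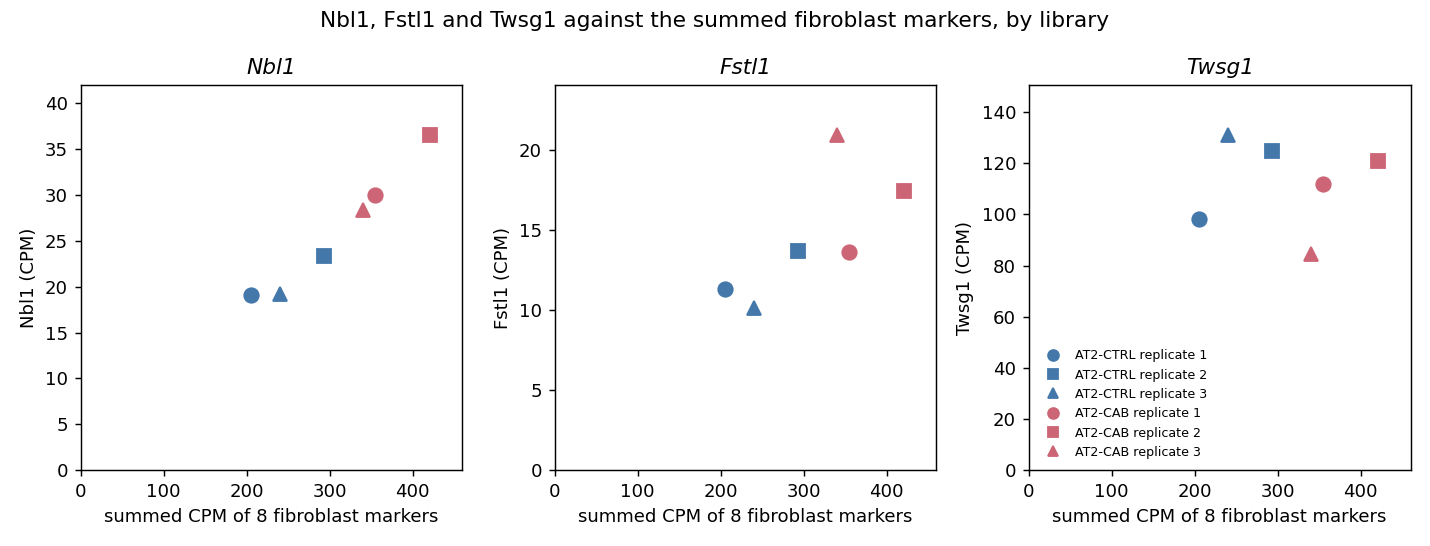
CPM of *Nbl1*, *Fstl1* and *Twsg1* in each library against the summed CPM of 8 fibroblast markers in the same library, with all axes starting at 0. *Nbl1* follows the sum in order, while *Twsg1* (84.5 to 131 CPM) does not.

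The 250 bases upstream of the annotated start are shown for *Nbl1*, the 1 gene whose groups did not overlap, beside *Fstl1*, the next in size of difference, and *Twsg1*, the 1 with a negative difference. Sequences are from RefSeq on GRCm38.p6, the assembly of mm10, and 5 of the 9 genes had an entry. Capitals mark GGCGCC and GGAGCC, GC-rich words of the kind bound by Smad1 and Smad5, and CAGAC, which holds the core of the Smad binding element, each searched on both strands (GGCGCC is its own reverse complement, and the other words also appear as GGCTCC and GTCTG).
Nbl1 (chr4:139092971-139093220, reverse strand): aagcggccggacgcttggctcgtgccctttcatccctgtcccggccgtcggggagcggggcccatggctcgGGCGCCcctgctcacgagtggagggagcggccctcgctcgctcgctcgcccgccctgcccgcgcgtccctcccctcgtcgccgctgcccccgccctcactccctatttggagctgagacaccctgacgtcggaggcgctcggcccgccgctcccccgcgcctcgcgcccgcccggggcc
Fstl1 (chr16:37776805-37777054, forward strand): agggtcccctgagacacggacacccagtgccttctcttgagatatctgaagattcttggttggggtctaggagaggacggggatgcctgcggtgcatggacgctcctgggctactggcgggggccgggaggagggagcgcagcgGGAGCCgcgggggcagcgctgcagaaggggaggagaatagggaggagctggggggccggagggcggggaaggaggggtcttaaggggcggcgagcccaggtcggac
Twsg1 (chr17:65951188-65951437, reverse strand): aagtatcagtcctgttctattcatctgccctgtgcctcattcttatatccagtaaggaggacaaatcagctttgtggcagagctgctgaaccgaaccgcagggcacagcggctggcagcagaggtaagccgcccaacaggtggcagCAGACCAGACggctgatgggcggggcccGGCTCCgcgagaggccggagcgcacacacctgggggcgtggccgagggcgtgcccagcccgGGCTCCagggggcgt
The window of *Nbl1* held GGCGCC 1 time, a word found in 9.59% of all 32851 promoter windows of this length. *Fstl1* held GGAGCC 1 time (26.0% of windows), and *Twsg1* held GGAGCC 2 times and CAGAC 2 times (42.2% of windows). GC content was 77.6% for *Nbl1*, 68.0% for *Fstl1* and 64.4% for *Twsg1*, against a median of 52.4%, so these windows were richer in the letters of the GC-rich words than most. *Fstl3* held CAGAC 2 times, and *Grem1* held GGCGCC and CAGAC 1 time each. *Fst*, *Nog*, *Chrdl1* and *Bambi* were not in the table.

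*Bambi* encodes a transmembrane pseudoreceptor, which resembles a type I receptor but lacks the kinase domain and so dampens signaling when it joins a receptor complex. The gene spans 3507957 to 3516404 of chromosome 18 (forward strand). It had 143, 142 and 182 CPM in AT2-CTRL and 176, 170.0 and 186 CPM in AT2-CAB, so AT2-CTRL replicate 3 reached into the range of AT2-CAB. Means were 156 ± 22.6 and 177 ± 8.18 CPM (SD, n = 3). The log2 fold change was 0.19 (standard error 0.13, 95% confidence interval -0.11 to 0.49, edgeR adjusted p = 0.675), an interval whose upper bound lies below a doubling. The BMP targets with called changes in the same libraries had log2 fold changes of 3.61 (*Id1*), 4.58 (*Id3*), 1.27 (*Smad6*), 3.37 (*Smad9*) and 4.10 (*Atoh8*), with adjusted p-values of 0.0172, 0.00758, 0.0431, 0.00289 and 0.00289 from edgeR's test. Of these, *Smad9* and *Atoh8* passed with any single library left out. *Id1* did not without AT2-CTRL replicate 1, 2 or 3 or AT2-CAB replicate 2 (edgeR adjusted p = 0.0955, 0.13, 0.11 and 0.0544). *Id3* did not without AT2-CTRL replicate 1, 2 or 3 (edgeR adjusted p = 0.0536, 0.0602 and 0.0595), and *Smad6* did not without any library but AT2-CAB replicate 1 (edgeR adjusted p = 0.0983 to 0.216). On all 6 libraries the call of *Smad6* was also lost with DESeq2's size factors (edgeR adjusted p = 0.0545), with age as a covariate (edgeR adjusted p = 0.0988) and in limma-voom (adjusted p = 0.0567).

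*Twsg1* encodes twisted gastrulation, a secreted protein that binds BMPs together with chordin and can either strengthen or release the inhibition. The gene spans 65923065 to 65951187 of chromosome 17 (reverse strand). It had 98.2, 125 and 131 CPM in AT2-CTRL and 112, 121 and 84.5 CPM in AT2-CAB. The lowest library of each group was the one with reads on Y-linked genes. The log2 fold change was -0.16 (standard error 0.17, 95% confidence interval -0.55 to 0.23, edgeR adjusted p = 0.786), and it turned to 0.012 without AT2-CAB replicate 3. In the 4 libraries lacking Y-linked reads it was -0.11 (edgeR adjusted p = 0.65).

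*Fst* encodes follistatin, which binds activins nearly irreversibly and some BMPs more weakly. The gene spans 114452262 to 114458951 of chromosome 13 (reverse strand). It had 3.14, 1.20 and 0.571 CPM in AT2-CTRL (70, 28 and 15 counts) and 1.10, 1.78 and 3.38 CPM in AT2-CAB (24, 46 and 104 counts). The highest library of each group was the one with reads on Y-linked genes, the opposite of *Twsg1*, and the groups overlapped over most of their range. The log2 fold change was 0.36 with a standard error of 0.68, and its 95% confidence interval ran from -1.19 to 1.92 (edgeR adjusted p = 0.89). It was 0.75 in the 4 libraries lacking Y-linked reads (edgeR adjusted p = 0.635) and 0.49 with those reads as a covariate (edgeR adjusted p = 0.551). It rose to 1.24 without AT2-CTRL replicate 1, and turned to -0.049 without AT2-CTRL replicate 3 and to -0.12 without AT2-CAB replicate 3. The interval takes in a 2-fold difference in either direction.

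*Fstl3*, a follistatin relative that binds activins and myostatin, spans 79777274 to 79782630 of chromosome 10 (forward strand). It had 3.85, 4.37 and 3.77 CPM in AT2-CTRL and 4.03, 5.70 and 3.83 CPM in AT2-CAB. The groups overlapped, and AT2-CAB replicate 2 alone stood above the rest. The log2 fold change was 0.18 (standard error 0.27, 95% confidence interval -0.44 to 0.80, edgeR adjusted p = 0.861). It was -0.0094 without AT2-CAB replicate 2 and 0.30 in the 4 libraries lacking Y-linked reads (edgeR adjusted p = 0.995 and 0.717).

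*Chrdl1* encodes a chordin-like antagonist of BMP4 and spans 143285674 to 143394262 of chromosome X (reverse strand). It had 1.34, 2.74 and 1.60 CPM in AT2-CTRL and 2.57, 2.64 and 2.34 CPM in AT2-CAB. The highest value of all was AT2-CTRL replicate 2, inside a group that otherwise lay below AT2-CAB. The log2 fold change was 0.41 (standard error 0.40, 95% confidence interval -0.50 to 1.32, edgeR adjusted p = 0.766).

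*Nog* and *Grem1* did not pass the expression filter, and most of their AT2-CAB counts came from 1 library. *Nog*, which encodes noggin, spans 89300638 to 89302559 of chromosome 11 (reverse strand) and had 4, 0 and 2 counts in AT2-CTRL and 10, 1 and 42 counts in AT2-CAB. The 0 in AT2-CTRL replicate 2 allows up to 0.129 CPM at that depth, taking 3 counts as the limit, or 0.257 CPM for 3 read pairs with both mates counted. Both limits cover counting error only. AT2-CAB replicate 3 held 79.2% of the counts of its group, and the values there were 0.458, 0.0388 and 1.36 CPM. *Grem1*, which encodes gremlin 1, spans 113748675 to 113758648 of chromosome 2 (reverse strand). It had 2, 8 and 2 counts in AT2-CTRL and 11, 6 and 24 counts in AT2-CAB, or 0.0761 to 0.343 and 0.233 to 0.780 CPM. The groups overlapped for both genes. Without a filter on low counts, edgeR's test gave log2 fold changes of 2.80 for *Nog* (unadjusted p = 0.0545, adjusted p = 0.638) and 1.54 for *Grem1* (unadjusted p = 0.129, adjusted p = 0.725). At such counts these fold changes depend on the prior count of the fit. It tested 22272 genes in this way, and called 0.278% of them higher and 0.0224% lower. *Bambi*, *Fst*, *Fstl1*, *Grem1* and *Nog* were each highest in AT2-CAB replicate 3, *Bambi* only narrowly (186 CPM against 182 CPM in AT2-CTRL replicate 3). Genes outside the members, such as *Wfikkn2* (14.3 CPM), were highest there too. The share of all genes highest in AT2-CAB replicate 3 was not computed, so this is a description and not a trait of these genes. That library also had the highest sum of 3 mesothelial markers (*Msln*, *Upk3b* and *Wt1*), at 48.5 CPM against 9.48 to 21.4 CPM in the other 5. None of the 3 was called, and all had positive log2 fold changes. Its sum of 8 BMP target genes was the highest as well (1910 CPM against 287 to 1190 CPM). So was that of 6 airway markers (1090 CPM against 528 to 1030 CPM), with *Krt5* at 0 in all libraries. Much of the airway sum there was *Tppp3* (439 CPM), which was itself called higher in AT2-CAB (log2 fold change 1.85, edgeR adjusted p = 0.0165). *Foxj1* and *Trp63* were also highest there. *Scgb1a1* (652 CPM in AT2-CAB replicate 2 against 623 CPM) and *Scgb3a2* were highest in other libraries. The part of mesothelial or airway cells in the values of the 5 genes was not tested.

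The antagonists were also set beside a list of 25 genes for other extracellular or cell-surface proteins linked to BMP and activin signaling. Of these, 23 were tested, 1 was called higher and 0 were called lower, where all genes gave 0.239% and 0.0120%. The median log2 fold change was 0.29 beside -0.0096 over all genes tested. At an unadjusted p under 0.05, 1 was higher and 2 were lower, where all genes gave 4.62% and 5.05%. Without overlap between groups, 1 was higher and 4 were lower, where all genes gave 6.99% and 10.1%. The largest negative value, named after it was seen, was that of *Smoc2*, a secreted relative of SPARC, at 72.8, 34.4 and 37.0 CPM in AT2-CTRL and 23.3, 13.3 and 9.84 CPM in AT2-CAB (log2 fold change -1.64, 95% confidence interval -2.50 to -0.78, edgeR adjusted p = 0.202). The gene called higher was *Wfikkn2*, a secreted protein with a follistatin domain that binds myostatin and GDF11, on chromosome 11 from 94235952 to 94242579 on the reverse strand. It had 2.06, 0.943 and 1.33 CPM in AT2-CTRL and 8.80, 12.6 and 14.3 CPM in AT2-CAB, with no overlap between the groups. Means were 1.44 ± 0.567 and 11.9 ± 2.82 CPM (SD, n = 3), a ratio of 8.24 and a log2 fold change of 3.05 (standard error 0.33, 95% confidence interval 2.28 to 3.81, edgeR adjusted p = 0.0147). The interval lay above those of all 7 tested antagonists and follistatins. The call was lost without AT2-CTRL replicate 2 (2.81), AT2-CTRL replicate 3 (2.99) or AT2-CAB replicate 2 (3.02), with adjusted p-values of 0.0602, 0.0932 and 0.0778 from edgeR's test. In the 4 libraries lacking Y-linked reads the log2 fold change was 3.26 (edgeR adjusted p = 0.012).

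**Figure D4:**
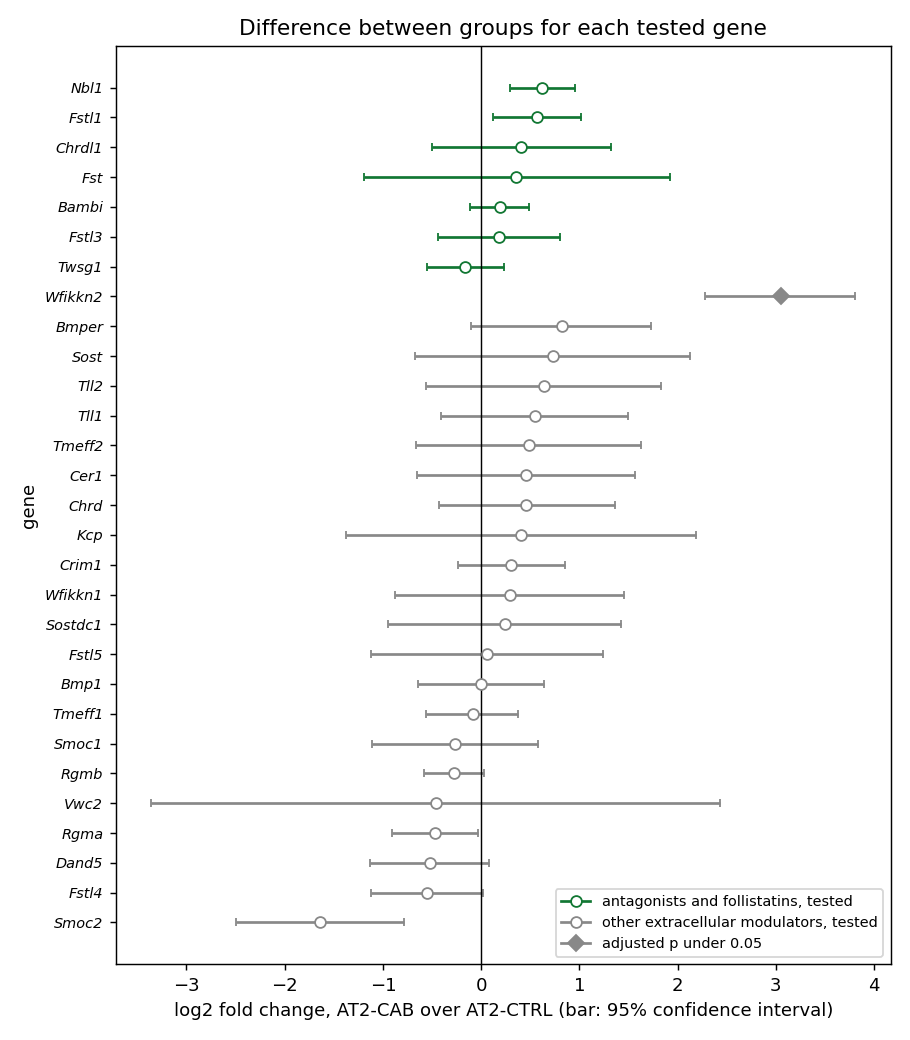
Log2 fold change of AT2-CAB over AT2-CTRL for the 7 tested antagonists and follistatins (green) and the other tested modulators reported here (grey), with 95% confidence intervals from edgeR's fit and a filled diamond where the adjusted p is under 0.05. The diamond is *Wfikkn2* at 3.05, and the green values run from -0.16 to 0.62.

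On the side of the ligands, 12 of 18 listed BMP and activin ligands were tested, with a median log2 fold change of -0.29. Of these, 0 were called in either direction, where all genes gave 0.239% higher and 0.0120% lower. At an unadjusted p under 0.05, 3 of the 12 were lower and 0 were higher, where all genes gave 5.05% and 4.62%. The most abundant per length was *Bmp4*, at 60.4 RPKM over the 6 libraries beside 33.0 for *Bambi* and 0.184 for *Nog*. *Bmp4* was at 143 CPM in AT2-CTRL and 98.2 CPM in AT2-CAB (log2 fold change -0.54, standard error 0.17, edgeR adjusted p = 0.387). All 10 listed receptors were tested, with a median log2 fold change of 0.095. None of the receptors was called, beside the same shares of 0.239% and 0.0120% over all genes. The most abundant of them per length, *Eng*, a co-receptor typical of endothelial cells, was at 22.9 RPKM. It overlapped with *Bmpr1a* (21.8 RPKM), which was higher in the AT2-CTRL mean (21.9 RPKM against 18.1 RPKM for *Eng*).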

How the data were processed

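RNA from 3 AT2-CTRL and 3 AT2-CAB libraries, grouped by their titles, was analysed. The authors trimmed reads, aligned them to mm10 with Hisat2, removed duplicates and deposited raw read counts per gene from featureCounts 1.5.3. Per the file header, neither strand nor read pairs were used, so both mates of a pair can count. The methods of the study instead speak of fragment numbers, and the counts were treated here as reads. Reads on exons shared by genes were left out. The deposited table also gives gene length in bases.

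The quasi-likelihood test of edgeR 4.0.16 (R 4.3.3) was applied after TMM scaling and a filter on expression (minimum count 10). P-values were adjusted over all genes tested by the Benjamini-Hochberg method, and a call needed an adjusted p under 0.05. A standard error is the log2 fold change divided by the square root of F. The methods of the study name DESeq2, which was run as an alternative (1.42.0), beside limma-voom (3.58.1), other scalings and filters, halved counts, covariates, a replicate block and leaving out each library. RPKM used TMM-scaled totals. The fit was tested on simulated counts.

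Members and lists were chosen with earlier results of these data known. All 9 members are named, as is every pathway gene called. A few items are not reported here. Replicates of a group differed by more than counting noise. The labels give separate samples and do not name the mice, so p-values measure the spread between these samples.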

Additional observations from a re-analysis of the deposited data

How the results depend on the processing

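Nothing among the 7 tested antagonists and follistatins was called under any of the settings run, with 1 exception: 1 gene, *Nbl1*, passed as higher with Y-linked reads as a covariate (log2 fold change 0.62). Direction was kept under all 18 settings other than the fibroblast ratio for *Fstl1* (0.42 to 0.74), *Chrdl1* (0.21 to 0.76), *Nbl1* (0.52 to 0.75) and *Bambi* (0.12 to 0.32). It reversed for *Fst* without AT2-CTRL replicate 3 (-0.049) and without AT2-CAB replicate 3 (-0.12), for *Fstl3* without AT2-CAB replicate 2 (-0.0094) and for *Twsg1* without AT2-CAB replicate 3 (0.012). With 1 library left out, values reached 1.24 for *Fst*, 0.33 for *Fstl3* and -0.28 for *Twsg1*. Relative to the summed fibroblast markers, a scale chosen after seeing the data, *Fst* (-0.065), *Fstl1* (-0.054), *Fstl3* (-0.45), *Chrdl1* (-0.13) and *Bambi* (-0.41) reversed, and *Twsg1* moved to -0.77, which follows in part from dividing by a sum that was higher in AT2-CAB. On this ratio *Twsg1* (42.8% to 54.7% of the sum in AT2-CTRL, 24.9% to 31.5% in AT2-CAB) and *Fstl3* (1.49% to 1.88%, 1.13% to 1.35%) did not overlap between groups. The sum itself did not overlap either. The share of all genes that would separate on this ratio was not computed, so no result is read from it. The cause of the other reversals was not tested.

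Over the whole table, 40 genes were called higher and 2 lower. Counts were 213 and 210 with Y-linked reads as a covariate, 73 and 40 in the 4 libraries without such reads, 198 and 88 with DESeq2's test, and 62 and 5 without a filter. Leaving out 1 library gave from 6 to 59 higher and from 0 to 4 lower, with fewer samples in each fit. Lower calls fell to 1 with upper-quartile scaling, library size only, a minimum count of 50, age as a covariate and limma-voom. A block for replicate number gave 36 higher and 5 lower, and changed no call among the 7 genes. Same-numbered libraries deviated from their group means with correlations of -0.32, 0.25 and -0.54, so no pairing by number was seen. With 3 libraries per group these values cannot exclude that same-numbered samples were handled together. The median log2 fold change of all genes was 0.12 with library size only, so values on that scale are shifted upward. Low counts limit *Nog* and *Grem1*, and the spread between libraries limits *Fst*. A group mean per length moved by more than its SD for *Bambi* in AT2-CAB (from 35.2 to 36.8 RPKM with library size only) and for *Fstl3* over unshared exon bases, a length added after seeing the data (5.02 RPKM in AT2-CTRL and 5.68 in AT2-CAB).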

Other observations

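For 6 of the tested genes, the gene whose CPM ran most alike over the 6 libraries was *Ppp1r14a* for *Nbl1* (Pearson's r = 0.9967 on the log2 scale), *Vstm4* for *Fstl1* (0.9964), *Ddc* for *Fst* (0.9964), *Xlr4a* for *Fstl3* (0.9924), *Pde8b* for *Twsg1* (0.9963) and *Blm* for *Bambi* (0.9876). These are descriptions over 6 points that share depth and scaling. Many genes came close, with 893 above r = 0.9 for *Twsg1*, 580 for *Fst*, 298 for *Fstl1*, 217 for *Nbl1*, 184 for *Chrdl1*, 55 for *Bambi* and 42 for *Fstl3*. *Ppp1r14a*, 1 of the 217 genes above r = 0.9 for *Nbl1*, encodes an inhibitor of myosin phosphatase and is a gene of smooth muscle. The listed smooth muscle and pericyte markers were divided. *Pdgfrb* and *Tagln* were highest in AT2-CAB replicate 2 (35.9 and 14.5 CPM), as *Nbl1* was. *Acta2*, *Myh11* and *Cspg4* were highest in AT2-CAB replicate 3 (13.3, 14.6 and 10.1 CPM), where *Nbl1* was lowest of its group. Whether smooth muscle cells contributed to the level of *Nbl1* was not tested.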
